A study of Homo sapiens with 2 samples.

Results

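The genes described here are the integrin alpha chains, the integrin beta chains and the chains of the laminins. Matched by symbol, they are 38 of the 60616 genes listed for HSC-3 cells. The group was chosen with earlier results of these data known. They comprise 18 alpha integrins, 8 beta integrins and 12 laminin chains. HSC-3 is an established line of human head and neck squamous cell carcinoma (HNSCC), from a tongue tumor. One RNA library came from a culture given 1 µM of FIN56, a small molecule that induces ferroptosis, over 48 h, and the other from a culture given its vehicle, DMSO at 0.1%, for which the labels state no time. Both cultures grew in DMEM with serum, and the labels name no engineered allele. The comparison asks which transcripts differ when these cells are exposed to a ferroptosis inducer. Each condition has a single library, so that no difference has a replicate check, no p-value is given, and FIN56 cannot be told apart from any other difference between the cultures.

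Integrins are receptors made of 1 alpha and 1 beta chain that span the cell membrane and hold the cell to its matrix. Laminins are secreted trimers of an alpha, a beta and a gamma chain, and they are the main adhesive proteins of the basement membrane under an epithelium. In stratified squamous epithelium, basal keratinocytes sit on laminin-332, whose chains include LAMA3 and LAMB3. They bind it through ITGA6 paired with ITGB4 in hemidesmosomes, which are anchored to keratin filaments, and through ITGA3 paired with ITGB1 in contacts linked to actin.

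Levels are given in FPKM, a read count divided by library depth and by a transcript length estimated in each library. Comparisons of levels between genes depend on that length. Read numbers are given in expected counts, the reads the RSEM program assigns to a gene. A ratio is the FIN56 library over the DMSO library. Each ratio of expected counts was scaled by library totals and has an exact Clopper-Pearson interval of 95%, which covers counting error only and compares the libraries, not the conditions. Expected counts summed to 70184517 with DMSO and 73062209 with FIN56. All 8 markers of squamous epithelium listed were present, from DSG3 at 9.42 FPKM to KRT5 at 2078 FPKM in the DMSO library. Of the leukocyte markers, PTPRC and CD3E had 0 counts in both libraries, LYZ had 1 count with DMSO and none with FIN56, and CD14 was the exception at 3.62 and 5.15 FPKM. The summed level of the 4 endothelial markers was 0.08 FPKM in each library, with KDR at 0 counts in both. That of the 5 fibroblast markers was 4.6 FPKM with DMSO and 2.5 with FIN56, nearly all of it COL1A1, with COL1A2 at 0 counts in both. The part of these markers in the results was not tested. The 3 megakaryocyte markers summed to 0.19 and 0.23 FPKM, all from GP1BA.

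ITGB6 and LAMB2 are the expressed genes past an FPKM ratio of 1.5 in either direction. LAMA3 and LAMB3 encode chains of laminin-332 and have windows with AP-1 letters. For these reasons the stretches before these 4 genes are shown first. They come from RefSeq on GRCh38.p14, 5′ to 3′ on the strand of the gene, without the bases that GENCODE places in an exon. Capitals mark matches, on either strand, to the motifs TGANTCA (AP-1, which reads alike on both strands), CATTCC (TEAD) and GGGCGG (SP1), and no match shown overlaps another. ITGB6 lies at chr2:160200314-160200522 (minus strand), LAMB2 at chr3:49133119-49133300 (minus), LAMA3, before a start site inside the gene, at chr18:23872770-23873019 (plus) and LAMB3, also before a start site inside the gene, at chr1:209651395-209651624 (minus).
ITGB6: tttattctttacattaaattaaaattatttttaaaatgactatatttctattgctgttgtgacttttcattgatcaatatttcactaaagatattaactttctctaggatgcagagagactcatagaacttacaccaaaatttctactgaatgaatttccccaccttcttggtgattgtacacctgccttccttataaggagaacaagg
LAMB2: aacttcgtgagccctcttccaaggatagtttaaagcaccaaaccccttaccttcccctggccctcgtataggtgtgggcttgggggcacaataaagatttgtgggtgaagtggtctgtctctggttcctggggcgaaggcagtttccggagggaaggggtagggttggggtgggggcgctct
LAMA3: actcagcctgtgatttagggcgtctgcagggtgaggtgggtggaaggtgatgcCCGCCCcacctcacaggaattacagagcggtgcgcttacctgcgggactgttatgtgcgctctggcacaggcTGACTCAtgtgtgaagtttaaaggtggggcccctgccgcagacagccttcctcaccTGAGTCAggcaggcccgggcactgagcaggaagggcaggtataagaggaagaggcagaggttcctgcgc
LAMB3: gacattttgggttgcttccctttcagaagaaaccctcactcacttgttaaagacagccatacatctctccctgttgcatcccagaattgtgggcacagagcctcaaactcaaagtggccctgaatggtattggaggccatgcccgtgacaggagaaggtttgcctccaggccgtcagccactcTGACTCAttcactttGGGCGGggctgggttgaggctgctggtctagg

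The ITGB6 stretch has a GC content of 30.1% and holds none of the 3 motifs, and the LAMB2 stretch has 56.6%. The whole LAMB2 window of 250 bases before the start site has 1 match, an SP1 motif at -68 to -63. LAMA3 carries the AP-1 letters at -125 to -119 and at -69 to -63 from its start site, and LAMB3 carries them at -67 to -61. The table held 33 such windows for 26 of the 38 genes. AP-1 letters occurred in 2 of the 33, 1 of LAMA3 and 1 of LAMB3, against 6.57% of all 35116 windows in the table. LAMB3 has 3 windows, and the 2 before its other start sites, among them that of the canonical transcript, hold no AP-1 letters. SP1 letters occurred in 17 of the 33, against 42.6% of all windows, and TEAD letters in 4, against 11.9%. A match describes letters and is not a binding site.

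Of the 38 genes, 20 had a level of at least 1 FPKM in the DMSO library, and the same 20 did in the FIN56 library. They were 13 integrin and 7 laminin chains. The highest level was that of ITGB1, the beta chain shared by most integrins, at 470 FPKM with DMSO and 515 with FIN56. ITGA3, a laminin receptor chain, followed at 420 and 321 FPKM. The hemidesmosome chains ITGB4 (194 and 132 FPKM) and ITGA6 (182 and 211 FPKM) came next among integrins. In the DMSO library ITGB1 lay above 99.3% of all genes with an FPKM above 0. Below the shared ITGB1, these 3 laminin-binding chains had the highest levels among the integrins, while the fourth, ITGA7, was at 0.14 and 0.15 FPKM.

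**Figure D1:**
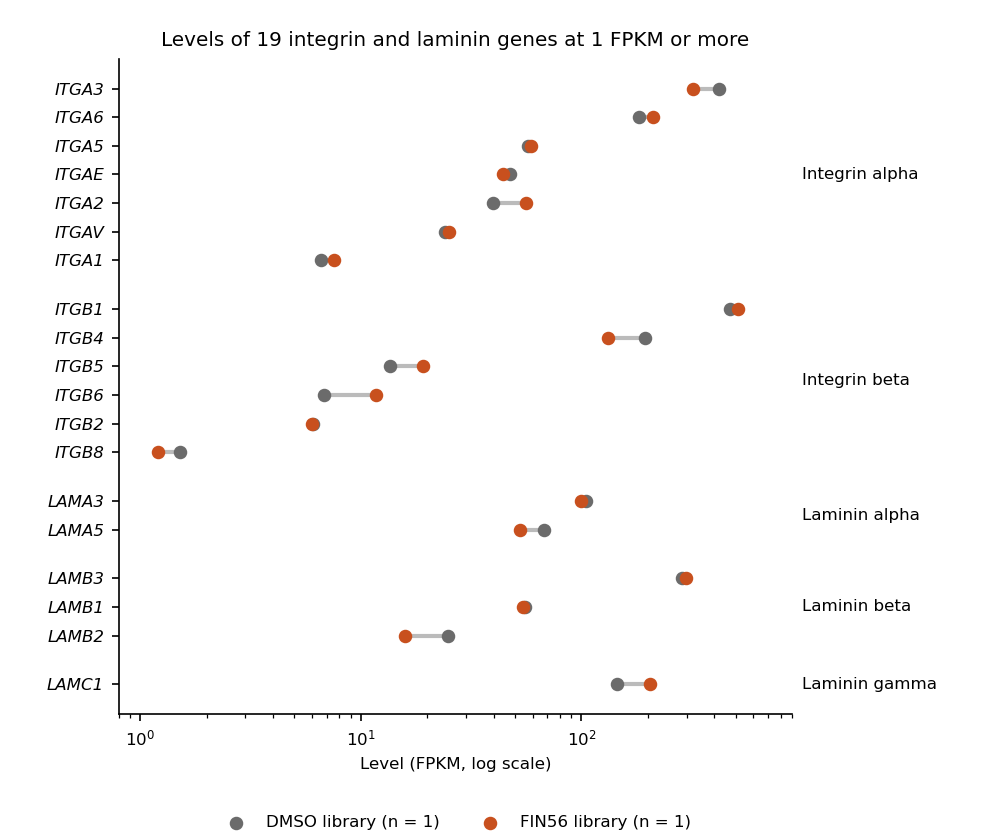
Level of 19 integrin and laminin genes at 1 FPKM or more in HSC-3 cells, on a log axis, with 1 point for the DMSO library (grey) and 1 for the FIN56 library (orange). The points of ITGB6, at 6.79 and 11.67 FPKM, lie farthest apart, and those of ITGB2 nearly coincide.

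Receptors that recognise the RGD tripeptide of fibronectin and related proteins were lower. ITGA5, the fibronectin receptor chain, stood at 57.4 FPKM with DMSO and 59.2 with FIN56. ITGAV, which pairs with several beta chains, stood at 24.1 and 25.2 FPKM. Apart from the shared ITGB1, its partners with DMSO were ordered ITGB5 (13.5 FPKM), ITGB6 (6.79 FPKM) and ITGB8 (1.52 FPKM). ITGB3 had 1 expected count in DMSO and 0 in FIN56. The gap between ITGB5 and ITGB6 depended on the length used. Divided by the length of the canonical transcript, ITGB5 and ITGB6 stood at 6.80 and 6.32 FPKM with DMSO. With FIN56 they stood at 8.48 and 9.49 FPKM. Of the collagen receptor chains, ITGA2 had 39.9 and 56.0 FPKM and ITGA1 6.61 and 7.58 FPKM. ITGA10 and ITGA11 stayed at or under 0.1 FPKM in both.

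Chains usually found on leukocytes were split. ITGB2, their common beta chain, had 6.08 FPKM with DMSO and 6.01 with FIN56, from 1061 and 1032 expected counts. Its alpha partners were at most at 0.28 FPKM, while PTPRC and CD3E were at 0 counts and CD14 was not. ITGAM had 0.28 and 0.13 FPKM, ITGAX 0.27 and 0.12, and ITGAL and ITGAD had 0 counts in both. ITGAE, the chain that binds E-cadherin on lymphocytes, was listed at 47.3 and 44.2 FPKM, while its partner ITGB7 had 1 expected count with DMSO and 4 with FIN56. That level of ITGAE rested on 1991 and 1986 reads and an effective length of 600 bases in DMSO, against 3803 bases in its canonical transcript. Divided by the canonical length, ITGAE would stand at 7.46 FPKM with DMSO.

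Among laminins, LAMB3 and LAMA3 of laminin-332 were the most abundant beta and alpha chain. LAMB3 stood at 286 FPKM with DMSO and 297 with FIN56, and LAMA3 at 104 and 99.9. In the DMSO library LAMB3 formed 78.0% of the summed beta chain level and LAMA3 60.6% of the alpha. The chains of laminin-511 came second, with LAMC1 at 145 FPKM, LAMA5 at 67.4 and LAMB1 at 55.4 with DMSO. LAMB2, the beta chain of laminin-521, had 24.9 FPKM. The other 5 laminin chains stayed at or under 0.43 FPKM in both libraries, with LAMC3 at 0 counts. In laminin-511 the alpha chain had a lower level than the gamma chain, and LAMC1 over LAMA5 by FPKM gave 2.15 with DMSO and 3.87 with FIN56.

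**Figure D2:**
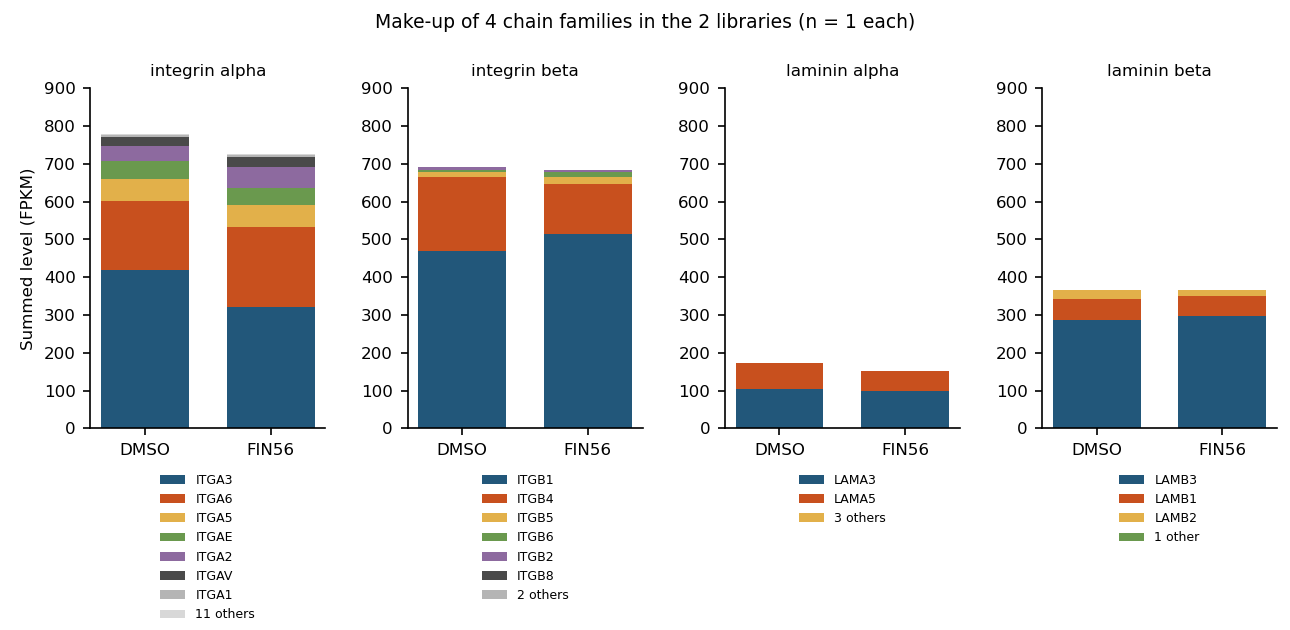
Summed FPKM (linear axis from 0) of the integrin alpha, integrin beta, laminin alpha and laminin beta chains in the DMSO and FIN56 libraries of HSC-3 cells, 1 library each, with each colored block 1 gene and the genes under 1 FPKM in DMSO pooled. The ITGA3 block is 54.0% of the alpha chains with DMSO and 44.3% with FIN56, and the ITGB4 block is 28.0% and 19.2% of the beta chains.

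Every chain was at 1 FPKM or more for 10 of 24 integrin pairs known from general knowledge and for several laminin trimers, and these were the same in both libraries. The laminins included 311, 321, 511 and 521, where the digits name the alpha, beta and gamma chains. The integrin pairs were ITGB1 with ITGA1, ITGA2, ITGA3, ITGA5, ITGA6 or ITGAV, ITGB4 with ITGA6, and ITGAV with ITGB5, ITGB6 or ITGB8. Transcripts do not show which proteins assemble.

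Few of the 38 genes passed the thresholds. An FPKM above 0 in both libraries was listed for 32 of them, of which 4 had a ratio of 1.5 or more and 5 a ratio of 1/1.5 or less, against 14.7% and 17.3% of all genes. Where each library held 10 or more expected counts these became 1 and 3 of 27 genes, against 7.62% and 11.1%. Among the 20 genes with at least 1 FPKM in both libraries, ITGB6 alone reached 1.5 and LAMB2 alone 1/1.5, where 3.87% and 6.77% of all such genes did. Their median FPKM ratio was 1.03, and that of all 12638 such genes 1.02. The counting interval lay above 1 for 9 of the 20 genes and below 1 for 7, against 38.0% and 35.9% of all genes at this level. By expected counts 1 gene reached 1.5 and 3 reached 1/1.5, against 3.24% and 7.10%. The share at 1/1.5 or less by expected counts was above that of all genes but rests on 3 genes. The other shares lie near those of all genes or rest on 1 gene, and what follows describes single genes.

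**Figure D3:**
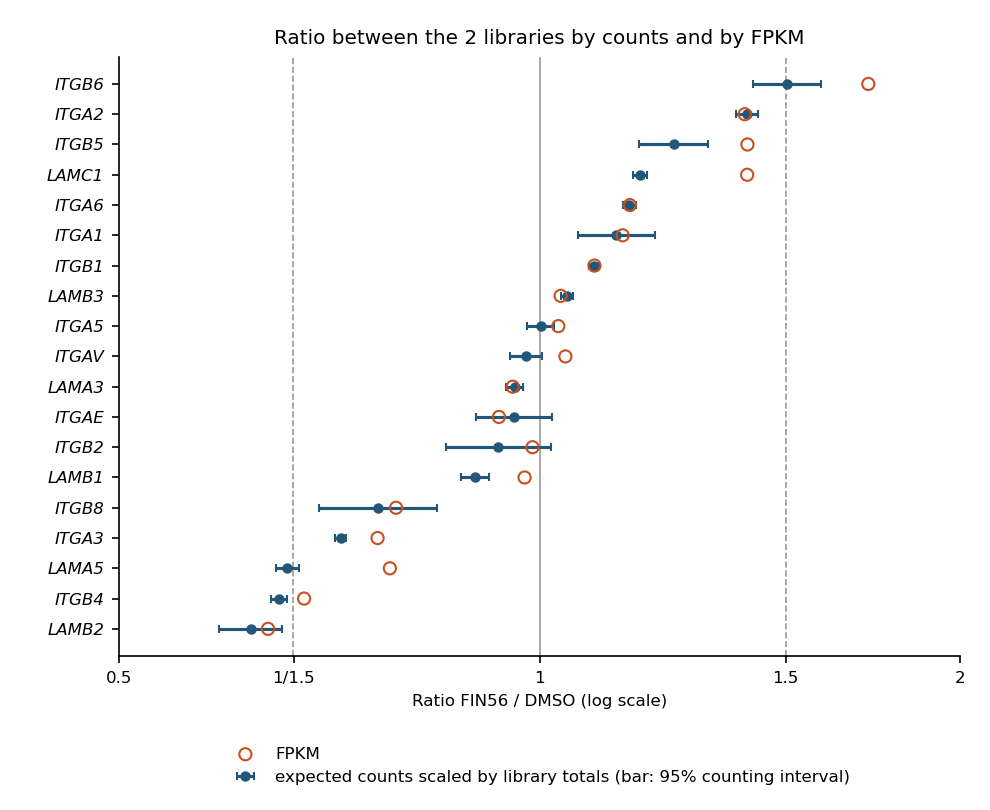
Ratio of the FIN56 to the DMSO library for 19 of the genes at 1 FPKM or more, on a log axis, by expected counts scaled by library totals (filled points, with the 95% counting interval) and by FPKM (open circles), with dashed lines at 1.5 and 1/1.5. ITGB6 stands highest by either measure and LAMB2 lowest, and the measures part most for LAMC1, LAMA5, ITGB6 and ITGB5.

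The chains that bind laminin differed in opposite directions. ITGB4 (chr17:75721328-75757818, 40 exons in its canonical transcript) had 55300 expected counts with DMSO and 37490 with FIN56, an FPKM ratio of 0.678 and a count ratio of 0.651 (interval 0.643 to 0.660). Its only partner ITGA6 (chr2:172427354-172506459) had 64505 and 77841 counts, a count ratio of 1.16 (1.15 to 1.17). ITGB4 over ITGA6 by FPKM was thus 1.07 with DMSO and 0.623 with FIN56. Which chain was higher with DMSO depended on the length used. Divided by canonical length, ITGB4 was the lower chain in both libraries, at 134 against 158 FPKM with DMSO and 87.0 against 183 with FIN56. ITGA3 (chr17:50055968-50090481) had 106933 and 80200 counts, with an FPKM ratio of 0.766 and a count ratio of 0.720 (0.714 to 0.727). ITGB1 (chr10:32887273-33005792) had a count ratio of 1.09 (1.09 to 1.1). The ITGA3 level was 2.31 times that of ITGA6 with DMSO and 1.52 times with FIN56. ITGA7, the muscle laminin receptor chain, had 14 and 17 counts.

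ITGB6 (chr2:160099667-160200313) was the expressed member with the highest ratio. It encodes the epithelial partner of ITGAV that binds and activates latent TGF-beta. Its level was 6.79 FPKM with DMSO and 11.67 with FIN56, a ratio of 1.72, from 2058 and 3219 expected counts. The count ratio was 1.5, with an interval of 1.42 to 1.59. Its counts are not whole numbers, so part of its reads was divided with another gene, and an unnamed gene on the same strand overlaps its exons in the annotation. Counts were whole in both libraries for 11 of the 20 genes at 1 FPKM or more. Those of ITGB1, ITGB4, ITGA6, LAMA5, LAMB1, ITGAV and ITGB2 were not whole either and are printed rounded. The other partners of ITGAV, the shared ITGB1 aside, differed in direction. ITGB5 (chr3:124761948-124901418), a vitronectin receptor chain, had 2118 and 2750 counts, a count ratio of 1.25 (1.18 to 1.32) and an FPKM ratio of 1.41. ITGB8 (chr7:20330702-20415754), which also activates TGF-beta, had 925 and 738 counts, a count ratio of 0.766 (0.695 to 0.845). ITGAV itself had a count ratio of 0.978, and its interval of 0.953 to 1.00 included 1. By FPKM it lay above 1, at 1.04. The interval of ITGA5 also included 1 (0.980 to 1.02).

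Of the 4 collagen receptor chains, the 2 at 1 FPKM or more were higher in the FIN56 library, whereas ITGA10, with 23 and 6 counts, was lower and ITGA11 had 4 and 12 counts. ITGA2 (chr5:52989340-53094779), the alpha chain of the main collagen receptor of keratinocytes, had 21269 counts with DMSO and 31162 with FIN56. Its count ratio was 1.41 (1.38 to 1.43), and its FPKM ratio was 1.40. This placed it just under the threshold of 1.5. ITGA1 (chr5:52787916-52959209) had 1799 and 2125 counts, a count ratio of 1.13 (1.07 to 1.21). Its exons overlap those of PELO on the same strand, and its counts are not whole. The intervals of ITGB2 (0.857 to 1.02) and ITGAE (0.90 to 1.02) included 1.

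Both LAMB3 and LAMA3 differed little, with count ratios of 1.05 for LAMB3 (1.04 to 1.06) and 0.960 for LAMA3 (0.946 to 0.973). LAMB2 (chr3:49121114-49133118), the beta chain of laminins 321 and 521, had 3679 counts with DMSO and 2380 with FIN56. Its level was 24.9 FPKM with DMSO and 15.9 with FIN56, a ratio of 0.639, and its count ratio was 0.621 (0.590 to 0.654). LAMA5 (chr20:62307955-62367312) had 26346 and 18095 counts, a count ratio of 0.660 (0.647 to 0.672), past 1/1.5, whereas its FPKM ratio was 0.781. LAMC1 (chr1:183023420-183145592) had 47148 and 57916 counts, a count ratio of 1.18 (1.17 to 1.19), whereas its FPKM ratio was 1.41. LAMB1 had a count ratio of 0.90 (0.879 to 0.920) and an FPKM ratio of 0.976. In the trimers 511 and 521 the alpha chain was thus lower and the gamma chain higher with FIN56 by both measures.

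The gap between the count and the FPKM ratio lies in the length by which RSEM divides. This effective length, recovered here from counts, FPKM and library totals, differed by more than 1.1 times between the libraries for 4 of the 20 genes (LAMA5, LAMC1, ITGB5 and ITGB6), against 14.8% of all genes at this level. It was 4646 bases with DMSO and 3894 with FIN56 for LAMC1, and 5573 and 4705 for LAMA5. Those of LAMA3 and LAMB3 were nearly equal in both. LAMA3 had 5339 and 5356 bases, against 10651 in its canonical transcript and 5618 in the transcript that begins at 23873020, where the stretch printed for this gene ends. ITGA2, at 7595 and 7623 bases, lay near its canonical length of 7843. An effective length reflects the mix of transcripts that RSEM assigned, which the gene tables do not hold. Exons of 10 of the 20 genes overlap an exon on the other strand, among them ITGA6, ITGB1, ITGB8 and LAMA5. Since the strand setting of the counting is not known here, reads of such partners cannot be told apart. For 7 of the 20 genes the DMSO level was more than 1.5 times what the canonical length would give.

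**Figure D4:**
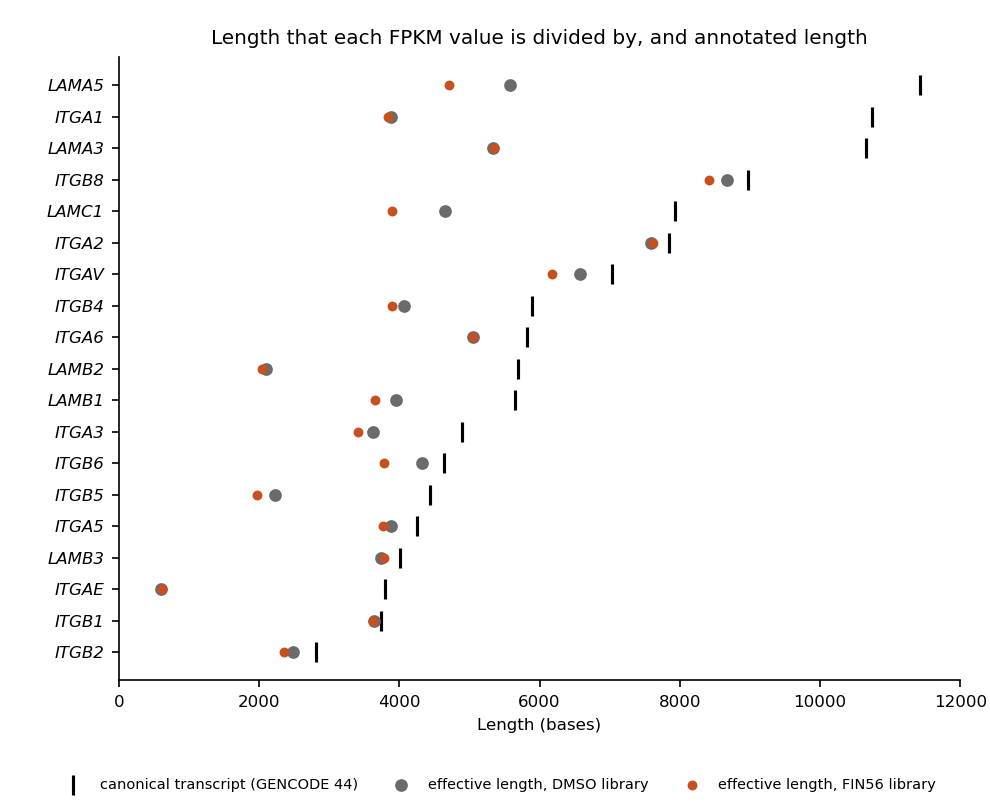
Effective length of 19 of the genes at 1 FPKM or more in the DMSO (grey) and FIN56 (orange) libraries and the length of its canonical transcript (black tick), in bases on a linear axis from 0. LAMC1, LAMA5, ITGB6 and ITGB5 have shorter effective lengths in the FIN56 library, and ITGAE lies at 600 bases against 3803.

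The remaining 18 genes had less than 1 FPKM in both libraries and at most 234 expected counts. The ratios past 1.5 among them rested on few reads: ITGA11 had 4 and 12 counts, ITGB7 1 and 4, and LAMA4 1 and 1. Of the lower ones, ITGA10 had 23 counts with DMSO and 6 with FIN56 (interval 0.0835 to 0.633), ITGAX 30 and 14 (0.220 to 0.872), ITGAM 42 and 31 (0.431 to 1.16), and ITGA2B, the platelet chain, 9 and 3. LAMA1 had 234 and 152 counts, a count ratio of 0.624 (0.505 to 0.769) beside an FPKM ratio of 0.884. ITGA4, LAMA2 and LAMB4 had between 17 and 32 counts, and the intervals of all 3 included 1. ITGAL, ITGAD, ITGA8 and LAMC3 had 0 counts in both libraries. By a 1-sided limit of 95%, unlike the intervals above, a count of 0 allows up to 3. ITGA9 and ITGB3 had 1 count with DMSO and 0 with FIN56.

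Next, 61 other genes of cell-matrix adhesion were read from 5 lists written from general knowledge. The lists were chosen with earlier results of these data known, so shares within them are descriptions and no independent check. At 1 FPKM or more in both libraries there were 50, of which 2 had an FPKM ratio of 1.5 or more and 5 one of 1/1.5 or less, beside the same 3.87% and 6.77% of all genes. Their median ratio was 0.982. All 4 hemidesmosome partners of ITGA6 and ITGB4 lay between the thresholds. COL17A1 had an FPKM ratio of 1.03, DST 0.989, CD151 0.913 and PLEC 0.905. By expected counts COL17A1 lay below 1 instead, with an interval of 0.943 to 0.958. The counting interval lay below 1 for 3 of the 4, against 35.9% of all genes, and that of DST included 1. Of 19 adaptors that link integrins to actin, the counting interval lay above 1 for 10 and below 1 for 6, against 38.0% and 35.9% of all genes. VCL, which encodes vinculin, had the highest ratio at 1.57, with 74.0 FPKM with DMSO and 116 with FIN56, followed by ACTN1, an actin crosslinker, at 1.51, with 219 and 329 FPKM. PARVB (0.818) and PARVA (0.864), partners of integrin-linked kinase, were the lowest. Among 11 signalling genes BCAR1 (1.34) and CRK (1.14) were highest, and ITGB1BP1 (0.789) and PTK2, the focal adhesion kinase (0.827), were lowest.

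Of the 10 matrix ligands other than laminins at 1 FPKM or more, the counting interval lay below 1 for 7 and above 1 for 2, against 35.9% and 38.0% of all genes. An FPKM ratio of 1/1.5 or less was found for 4 of them, against 6.77% of all genes, and the median ratio of the 10 was 0.770. COL7A1, the collagen of the anchoring fibrils that tie laminin-332 to the dermis, had 41.8 FPKM with DMSO and 15.4 with FIN56, a ratio of 0.369. HSPG2, which encodes perlecan, had 14.4 and 6.50 FPKM, a ratio of 0.450. The other two, named after their values were seen, were NPNT (0.551) and AGRN (0.615). By FPKM, CCN2, with a ratio of 1.42, and TNC, with 1.03, were the highest. The count ratio of TNC was 0.988, and its interval of 0.969 to 1.01 included 1. Of the 6 other laminin receptors, BCAM, which binds the LAMA5 chain, had the lowest ratio at 0.645, with 30.3 and 19.6 FPKM. RPSA, which is also a ribosomal protein with many pseudogenes and so an uncertain count, had 0.725. MCAM (1.17) and SDC4 (1.14) were the highest by FPKM. The count ratio of MCAM was 1.08, and its interval of 0.960 to 1.21 included 1.

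**Figure D5:**
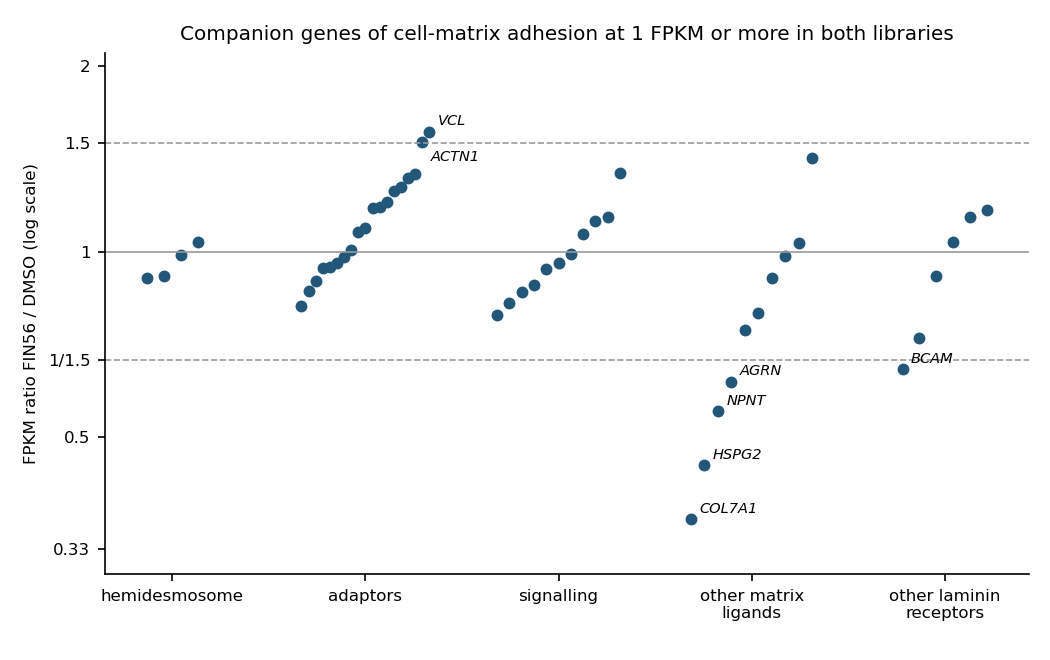
FPKM ratio of the FIN56 to the DMSO library for the 50 other adhesion genes at 1 FPKM or more in both libraries, on a log axis, with 1 point per gene, grouped by list, and dashed lines at 1.5 and 1/1.5. VCL and ACTN1 lie above the upper line, and COL7A1, HSPG2, NPNT, AGRN and BCAM below the lower.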

How the data were processed

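Total RNA of HSC-3 cells was made into libraries with a stranded poly(A) kit, 1 with DMSO and 1 with FIN56. By the submitters' processing notes, FastQC 0.11.7, STAR 2.6.1a, RSEM 1.3.1 and DESeq2 1.26.0 were used with GRCh38. The methods describe tumor samples and were taken to hold for HSC-3. The strand setting of the counting is not given in the sources used here. The authors deposited RSEM expected counts, which are not normalized, FPKM and TPM, which are scaled by depth and effective length, and rlog values on a log2 scale. FPKM carry 2 decimals.

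Genes were matched by symbol, and the members and the lists were chosen with earlier results of these data known. One member and 1 marker, which stay in the counts, are not reported here. Described genes were the other members, and of each list the 2 highest and 2 lowest FPKM ratios at 1 FPKM or more. The main measure was the FPKM ratio with thresholds of 1.5 and 1/1.5. Intervals were exact Clopper-Pearson intervals at 95% on expected counts rounded to whole numbers. The reads carry no molecular identifiers and are not independent, so intervals cover counting error only. Effective lengths were recovered as counts over FPKM and library total. Positions came from GENCODE release 44 and start sites from RefSeq, both on GRCh38. Alternatives were TPM, rlog, edgeR 4.0.16 TMM, DESeq2 1.42.0 size factors, filters, pseudocounts and a threshold of 2. The interval was tried on simulated independent counts only, so its coverage for these reads was not tested. Python 3.11.15, scipy 1.17.1 and R 4.3.3 were used.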

Additional observations from a re-analysis of the deposited data

How the results depend on the processing

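No paired analysis was possible because DMSO and FIN56 have 1 library each, and neither could be left out. The number of integrin and laminin genes at 1.5 or more was 4. It was 1 with an FPKM of at least 1, with at least 10 counts, or with a pseudocount of 0.1 or 1 FPKM, and 0 by rlog. The number at 1/1.5 or less was 5. It was 8 by library totals and by TMM, 3 with at least 10 counts or a threshold of 2, 1 with an FPKM of at least 1 or a pseudocount of 1, and 0 by rlog. The filters test fewer genes, and rlog draws libraries together by construction. LAMA4, from 1 read in each library, turned from 2 to 0.961 by library totals, 0.959 by TMM, 0.985 by size factors and 1.00 by rlog. The other adhesion genes at 1.5 or more numbered 2, and 1 by library totals or TMM, 0 by rlog and 0 at a threshold of 2. Those at 1/1.5 or less numbered 11, and 1 by rlog, 5 with an FPKM of at least 1 or a pseudocount of 1, and 7 at a threshold of 2.

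Of the 20 genes at 1 FPKM or more, 18 kept their direction under the 7 alternatives run on single genes. ITGAV (0.977 to 1.07) and ITGB2 (0.933 to 1.01) did not. ITGB6 ranged from 1.19 by rlog to 1.76 by TPM, and LAMB2 from 0.621 by TMM to 0.834 by rlog. Levels by canonical length were chosen after seeing the data.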
